A study of Mus musculus with 21 samples.

Results

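The 40 genes described here are the transcription factors Myc and Mycn, their partner Max, and 37 genes that act in making ribosomes. They were taken from the table of 47729 genes by symbol. For 39 the symbol matched, and Utp4 was found by its Ensembl identifier, since the table lists it under the older name Cirh1a. Mouse hematopoietic stem cells (HSCs), sorted from bone marrow as CD48- LSK CD150+ cells (LSK, lineage-negative, Sca-1-positive, Kit-positive), gave the RNA, which was sequenced as 21 SMART-seq2 libraries in 7 groups of 3. Mx1-Cre;Atg5fl/fl mice received bortezomib, an inhibitor of the proteasome, or control DMSO, and wild-type (WT) mice received the same agents. Bortezomib was given at 10 mg/kg and DMSO at 10%, both by retro-orbital injection 48 and 24 h before analysis. From RFP-EGFP-LC3 mice, which were not treated and carry a reporter of autophagy, HSCs were sorted into RFP single positive, RFP GFP double positive and double negative cells. Mx1-Cre is a recombinase under an interferon-inducible promoter. The labels state neither an induction nor the age or sex of the mice. They also do not say whether the replicates came from separate animals, so the p-values measure the spread between these samples, which may be technical.

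MYC binds DNA as a pair with MAX at a short sequence called the E-box, and raises transcription of many genes needed for growth, among them those for RNA polymerase I and for ribosome assembly. In the nucleolus, RNA polymerase I transcribes ribosomal RNA, which small nucleolar ribonucleoproteins (snoRNPs) modify: box C/D particles guide methylation of ribose and box H/ACA particles guide the formation of pseudouridine. Assembly factors then fold, cut and package the RNA into a small and a large subunit. HSCs are known for a low rate of protein synthesis compared with other blood progenitors.

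Each library held 15005500 to 31481691 counts and 16095 to 18899 detected genes, and the members held 153 to 31425 counts in each library, so all 40 passed the filter on low counts in each experiment. Atg5, the gene targeted in the Mx1-Cre;Atg5fl/fl mice, ranged from 95.2 to 142.5 CPM (counts scaled to the size of the library) in their libraries after bortezomib and from 107 to 114 CPM after DMSO, against 72.1 to 135 CPM in WT libraries after bortezomib and 39.9 to 74.6 CPM after DMSO. These counts take in all of the gene and not the deleted part alone, so they check nothing about the labels, and the genotype is given as labelled. Xist, expressed from the inactive X chromosome of females, ranged within groups, from 0 to 100% of Xist plus Ddx3y counts in Mx1-Cre;Atg5fl/fl bortezomib, at most 0.987% in Mx1-Cre;Atg5fl/fl DMSO, 31.8 to 90.3% in WT bortezomib and 60.0 to 99.2% in WT DMSO libraries. In the reporter experiment this Xist share was 88.1 to 99.9% in the library numbered 2 of each population and 0 to 10.2% in the others. Mx1-Cre;Atg5fl/fl bortezomib 3, WT bortezomib 3 and WT DMSO 3 stood apart from the rest on the third principal component. In the reporter experiment, RFP GFP double positive 1 and 2 and double negative 1 stood apart. Values are CPM, given in the order of replicates 1, 2 and 3, and means carry SD with n = 3. A gene is said to rise or fall where edgeR's quasi-likelihood test gave a Benjamini-Hochberg adjusted p under 0.05 over all genes tested. RNA was pooled over cells, so fewer cells of a type and less RNA per cell cannot be told apart.

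Promoter sequences were compared with the E-box because MYC and MAX are members. The motif searched was CACGTG, which reads the same on both strands, in RefSeq windows from 250 bases before to 50 bases after the start of each gene (build GRCm38.p6). Of the members, 35 had a window, and Myc, Npm1, Fbl, Bop1 and Rrp12 had none. The motif was present in 9 of these 35 genes, or 25.7%, compared with 8.09% of all 27025 genes with a window and 11.6% of the 10599 of them that were tested in the treatment experiment. By window, of which a gene can have several, the shares were 23.7% of 38 member windows and 7.15% of all 32851 windows. In the other lists the motif was present in 20.3% of 79 further ribosome biogenesis genes, 41.4% of 29 MYC targets outside the ribosome and 10.3% of 58 ribosomal protein genes. It lay in Ltv1, Max, Nop2, Pes1, Rrn3, Tsr1, Utp20, Utp4 and Wdr43. The windows below are shown because Utp4 is the member with an E-box that rose after bortezomib in WT, Nop2 and Wdr43 fell between genotypes under bortezomib, and Rrn3 alone among the members held 2 copies. Each starts 100 bases before the gene start (250 for Rrn3) and ends 30 bases into the gene, 5′ to 3′, with the E-box in capitals.
Utp4 (chr8:106893540-106893669, + strand): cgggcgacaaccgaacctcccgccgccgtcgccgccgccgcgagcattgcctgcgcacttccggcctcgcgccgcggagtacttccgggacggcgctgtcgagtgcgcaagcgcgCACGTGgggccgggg
Nop2 (chr6:125131783-125131912, + strand): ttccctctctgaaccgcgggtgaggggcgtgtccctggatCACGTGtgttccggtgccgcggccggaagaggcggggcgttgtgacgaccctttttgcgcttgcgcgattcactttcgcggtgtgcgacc
Wdr43 (chr17:71616115-71616244, + strand): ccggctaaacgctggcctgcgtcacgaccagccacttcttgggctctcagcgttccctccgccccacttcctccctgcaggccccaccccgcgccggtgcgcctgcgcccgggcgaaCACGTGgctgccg
Rrn3 (chr16:13780449-13780728, + strand): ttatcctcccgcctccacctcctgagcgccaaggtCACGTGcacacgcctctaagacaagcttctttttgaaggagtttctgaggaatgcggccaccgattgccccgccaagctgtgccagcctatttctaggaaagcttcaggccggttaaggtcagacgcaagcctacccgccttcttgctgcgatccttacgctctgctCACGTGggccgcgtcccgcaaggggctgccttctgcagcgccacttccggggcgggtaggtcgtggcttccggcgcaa
In Utp4 and Wdr43 the motif began 15 and 17 bases after the start, in Nop2 it began 60 bases before it, and in Rrn3 it began 215 and 48 bases before it. A match is a stretch of letters and was not tested as a binding site, and a window with no match says only that these letters are not in it.

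The first comparison set WT bortezomib against WT DMSO libraries, for the response of HSCs to proteasome inhibition. Of the 40 members, 13 rose, 0 fell and 27 were not called, while edgeR called 15.5% of all 16149 genes tested, 7.97% as higher and 7.56% as lower. The 13 were 2 of 5 nucleolar scaffold genes, 2 of 4 box C/D genes, 2 of 4 box H/ACA genes, 3 of 11 small subunit factors and 4 of 10 large subunit factors. None of Myc, Mycn, Max or the 3 genes of RNA polymerase I was called. The median log2 fold change of the 40 members was 0.45, beside -0.04 over all genes tested. At an unadjusted p under 0.05 there were 21 members, all higher, beside 30.5% of all genes tested. In 21 members all 3 bortezomib libraries lay above all 3 DMSO libraries, and in 0 below, where 19.3% and 17.7% of all genes tested did so.

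None of the transcription factors was called by edgeR. Myc stood at 394, 369 and 378 CPM in WT bortezomib libraries, against 416, 376 and 269 CPM in WT DMSO libraries. The groups overlapped, with WT DMSO 3 the lowest, and the difference was not called (log2 fold change 0.11 with SE 0.25, adjusted p = 0.820 in edgeR). Mycn, a relative of Myc with the same partner, stood at 271, 264 and 338 CPM after bortezomib and 439, 372 and 305 CPM after DMSO. Its groups overlapped too, with the bortezomib libraries towards the low end (log2 fold change -0.35 with SE 0.22, adjusted p = 0.300 in edgeR). Limma voom with sample quality weights did call Mycn lower. Max, the partner that both need to bind DNA, stood at 67.5, 53.7 and 64.5 CPM after bortezomib and 47.7, 53.8 and 57.4 CPM after DMSO, overlapping between groups (log2 fold change 0.22 with SE 0.18, adjusted p = 0.448 in edgeR). Of the RNA polymerase I genes, Polr1b (a core subunit) averaged 129 ± 18.6 CPM after bortezomib and 87.8 ± 19.3 CPM after DMSO, and Rrn3, the initiation factor that carries growth signals to the polymerase, averaged 131 ± 5.12 CPM after bortezomib and 101 ± 5.63 CPM after DMSO. In both genes the bortezomib libraries lay above the DMSO libraries without overlap, with adjusted p = 0.0689 and 0.0779 in edgeR.

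**Figure D1:**
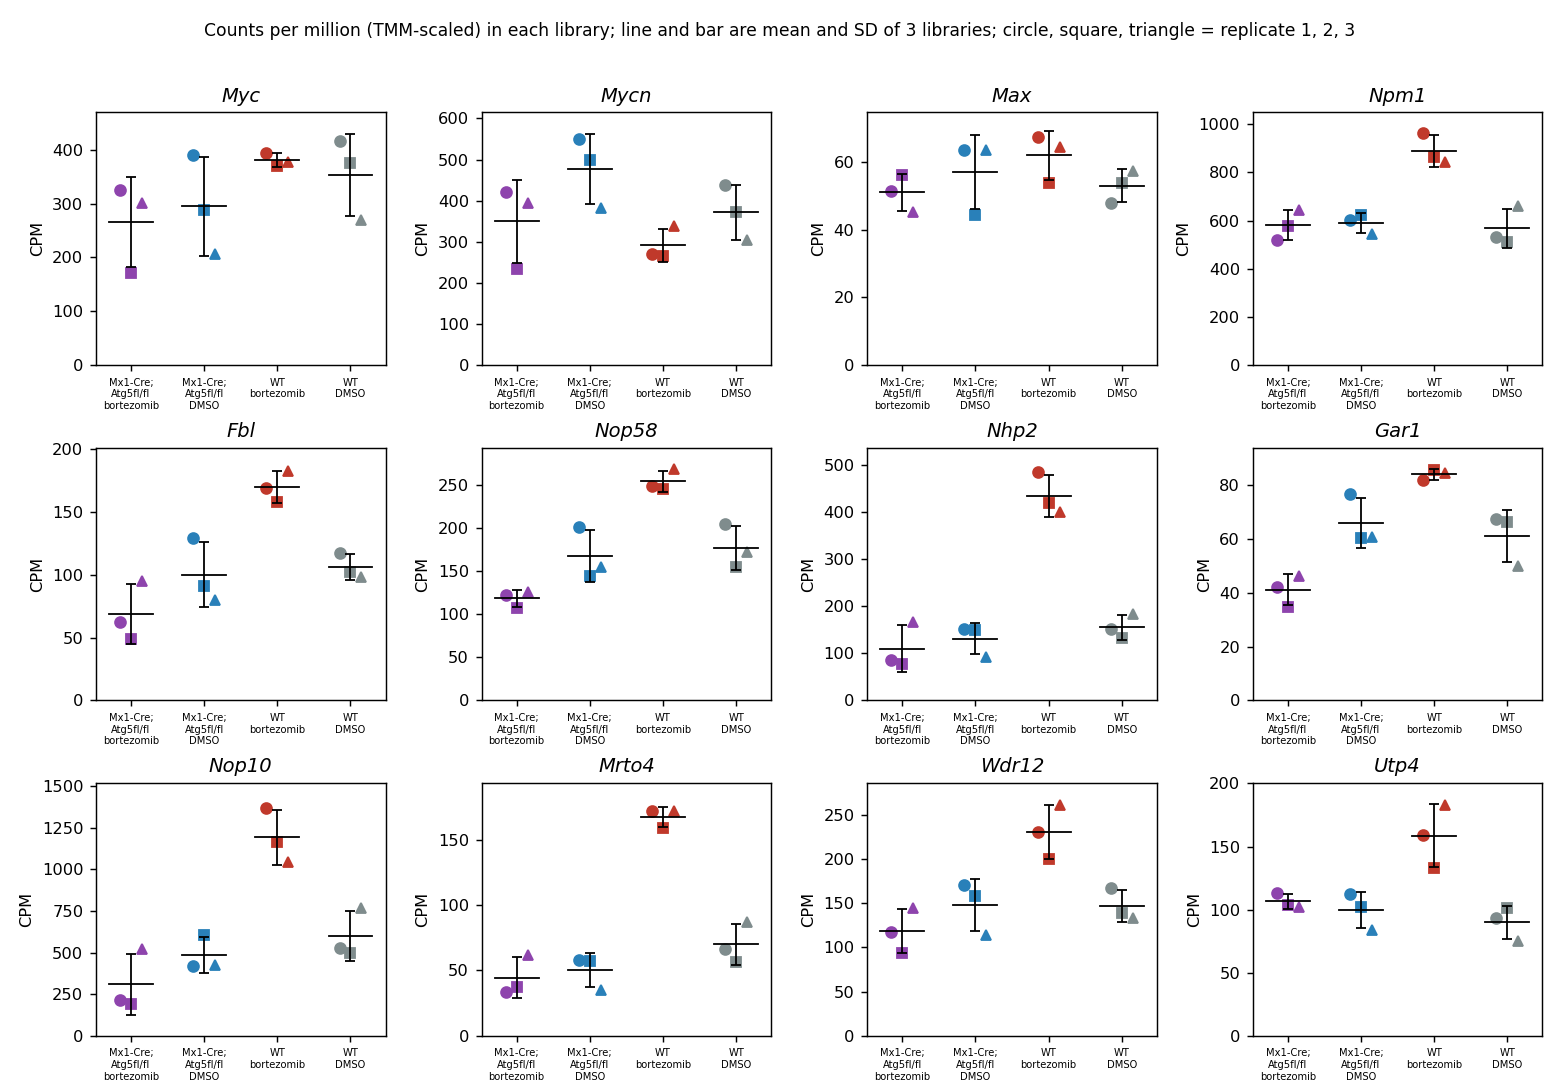
CPM (y axis, from 0) of 12 members in each library of the treatment experiment, by group (x axis), with the mean as a line and the SD as a bar (n = 3). Nhp2, Mrto4 and Nop10 stand highest in the 3 WT bortezomib libraries, while the Myc values after bortezomib and after DMSO overlap within each genotype.

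Among the nucleolar scaffold genes, Npm1 (nucleophosmin, an abundant chaperone of ribosome assembly) rose. It stood at 965, 863 and 841 CPM in WT bortezomib libraries, against 532, 511 and 661 CPM in WT DMSO libraries, so every bortezomib library was higher (log2 fold change 0.65 with SE 0.15, adjusted p = 0.0131 in edgeR). Gnl3 (nucleostemin, a nucleolar GTPase of stem and tumour cells) also rose, to 198 ± 26.6 CPM after bortezomib, against 132 ± 11.5 CPM after DMSO (log2 fold change 0.59 with SE 0.19, adjusted p = 0.0460 in edgeR). Ncl (nucleolin, which binds ribosomal RNA precursors) went the other way in its mean and was not called: it stood at 543, 630.2 and 467 CPM after bortezomib and 787, 665 and 369.8 CPM after DMSO. WT DMSO 3 was the lowest of these 6 libraries and the other DMSO libraries the highest, so the groups overlapped (log2 fold change -0.15 with SE 0.26, adjusted p = 0.745 in edgeR). Ddx21, a helicase of the nucleolus, and Nolc1, a chaperone of snoRNPs, were not called (log2 fold changes 0.45 and 0.07).

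Fbl (fibrillarin, the methyltransferase of box C/D particles) stood at 169.5, 158 and 183 CPM in WT bortezomib libraries, against 118, 103 and 98.2 CPM in WT DMSO libraries. The groups did not overlap, yet Fbl just missed the threshold (log2 fold change 0.68 with SE 0.23, adjusted p = 0.0527 in edgeR), which it passed under 9 of the 16 alternatives. The other genes of the particle had positive values too. Nop58, a core protein of the particle, rose to 254 ± 12.6 CPM after bortezomib, against 177 ± 25.3 CPM after DMSO (log2 fold change 0.52 with SE 0.16, adjusted p = 0.0422 in edgeR). Nop56, its relative, averaged 309 ± 27.4 CPM after bortezomib and 208 ± 33.2 CPM after DMSO and was not called (edgeR adjusted p = 0.0962). Reads of Nop56 are less certain, since 8.12% of its exon bases are shared with snoRNA genes and with Idh3b on the opposite strand. Rrp9, which joins the particle that carries the U3 snoRNA, rose by 0.67 on the log2 scale (SE 0.20, edgeR adjusted p = 0.0363).

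The largest fold change of any member was that of Nhp2 (ENSMUSG00000001056.3, chromosome 11, 51619735 to 51623714, GRCm38), which binds the RNA of box H/ACA particles. It stood at 485, 418 and 400.4 CPM in WT bortezomib libraries, against 151, 132 and 184 CPM in WT DMSO libraries. Every bortezomib library was far above every DMSO library (log2 fold change 1.48 with SE 0.26, adjusted p = 0.00412 in edgeR). Nop10 (ENSMUSG00000027133.3, chromosome 2, 112261926 to 112263269), the small protein beside it in the particle, rose as well, with 1371, 1168 and 1045 CPM after bortezomib and 527, 499 and 771 CPM after DMSO and no overlap (log2 fold change 1.00 with SE 0.31, adjusted p = 0.0396 in edgeR). Dkc1 (dyskerin, the pseudouridine synthase) behaved differently from these and was not called, with 208, 195 and 199 CPM after bortezomib inside the DMSO range of 223, 179.9 and 120.3 CPM (log2 fold change 0.20 with SE 0.24, adjusted p = 0.616 in edgeR). Gar1, the remaining subunit, averaged 83.8 ± 1.98 CPM after bortezomib and 61.0 ± 9.78 CPM after DMSO (edgeR adjusted p = 0.0915). Measured per kilobase of exon, Nop10 was the most abundant member in both groups, at 1077 CPM per kb after bortezomib and 540.1 CPM per kb after DMSO, and Utp20 the least, at 1.64 CPM per kb after bortezomib and 1.44 CPM per kb after DMSO.

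Of the small subunit factors, Utp4 (ENSMUSG00000041438.7, chromosome 8, 106893636 to 106923088, GRCm38), part of an early complex on the ribosomal RNA precursor, stood at 159, 133 and 183 CPM in WT bortezomib libraries, against 93.1, 101 and 75.1 CPM in WT DMSO libraries. Every bortezomib library was higher (log2 fold change 0.82 with SE 0.17, adjusted p = 0.00787 in edgeR). Utp15, of the same complex, rose too, by 0.58 on the log2 scale (SE 0.18, edgeR adjusted p = 0.0409). Bysl (bystin, a late factor of small subunit maturation) stood at 58.5, 54.6 and 63.9 CPM after bortezomib and 39.3, 29.1 and 19.7 CPM after DMSO, without overlap (log2 fold change 1.01 with SE 0.28, adjusted p = 0.0269 in edgeR); 9.37% of its exon bases are shared with Ccnd3 on the opposite strand, and the strand setting of the counting is unknown. The other 8 small subunit factors were not called, with log2 fold changes from -0.32 for Nop14 to 0.80 for Rrp12. Tsr1 among them shares 32.3% of its exon bases with Srr on the opposite strand, so its value is uncertain.

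Among the large subunit factors, Mrto4 (ENSMUSG00000028741.13, chromosome 4, 139347435 to 139352576, GRCm38), which holds the place of a stalk protein on the immature subunit, had 172, 159 and 172 CPM in WT bortezomib libraries, against 66.3, 56.7 and 87.2 CPM in WT DMSO libraries. It rose with no overlap (log2 fold change 1.26 with SE 0.25, adjusted p = 0.00572 in edgeR). Bop1 and Wdr12, which form a complex with Pes1, rose: Bop1 stood at 182, 177 and 179 CPM after bortezomib and 106, 89.1 and 80.4 CPM after DMSO (log2 fold change 0.97 with SE 0.26, adjusted p = 0.0205 in edgeR). Wdr12 stood at 231, 199.8 and 261 CPM after bortezomib and 167, 139 and 134 CPM after DMSO (log2 fold change 0.65 with SE 0.19, adjusted p = 0.0332 in edgeR). The libraries of neither gene overlapped between groups, while their partner Pes1 was not called (123 ± 5.47 CPM after bortezomib and 115 ± 6.20 CPM after DMSO, edgeR adjusted p = 0.720). Nop16, a nucleolar protein known as a target of MYC, stood at 211, 186 and 193 CPM after bortezomib and 124, 101 and 107 CPM after DMSO, again without overlap (log2 fold change 0.83 with SE 0.23, adjusted p = 0.0261 in edgeR). Ppan and Ebna1bp2 were not called, at log2 fold changes of 0.01 and 0.12.

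The calls depended on the libraries, among the members and over all genes tested. Leaving out 1 library left 5 (WT DMSO 1), 3 (WT DMSO 2), 5 (WT DMSO 3), 3 (WT bortezomib 1), 4 (WT bortezomib 2) or 7 (WT bortezomib 3) members called, compared with 13 with all libraries, and only Nhp2, Mrto4 and Utp4 were called under each of the 16 alternatives tried. Over the alternatives the adjusted p reached its highest value without WT DMSO 2 for Nhp2 (0.0304), Npm1 (0.0784), Bop1 (0.0848), Bysl (0.0974), Nop16 (0.112), Wdr12 (0.128), Nop10 (0.154), Gnl3 (0.173) and Nop58 (0.189). The highest was 0.147 without WT bortezomib 3 for Rrp9 and 0.182 without WT bortezomib 1 for Utp15. Without the 3 libraries that stood apart, 9 members were called higher, beside 2102 of 16410 genes tested. With all libraries, 1287 of 16149 genes tested were called higher. Leaving out WT DMSO 1, 2 or 3 left 427 of 16962, 318 of 16914 and 1362 of 16873 genes. Leaving out WT bortezomib 1, 2 or 3 left 282 of 16939, 654 of 16993 and 1014 of 16906 genes.

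The other lists of the pathway were tested in the same comparison. Of 97 further ribosome biogenesis factors, 26 rose, 1 fell and 70 were not called (median log2 fold change 0.32), led by Eif6, which keeps the subunits apart (0.90), Pno1 (1.29), the RNA polymerase subunit Polr1d (0.99) and the methyltransferase Emg1 (1.02). Of 79 cytosolic ribosomal protein genes, 20 rose, 0 fell and 59 were not called (median 0.54), with Rpl27, Rpl38, Rpl5 and Rps16 at log2 fold changes of 1.11, 1.00, 0.81 and 0.96. Of 32 genes known as targets of MYC outside the ribosome, 21 rose and 0 fell (median 0.81), among them the mitochondrial scaffold Phb2 (0.96), the translation initiation factors Eif2s1 (1.30) and Eif4a1 (1.01), and Odc1, the first enzyme of polyamine synthesis (1.19). A further list held 12 tested genes linked to MYC and MAX, not all of which pair with either. Their median was -0.56, and 3 fell: Mxi1 (-1.04), Mxd4 (-1.01) and Mxd1 (-1.20), which pair with MAX and repress its targets. Their relative Mxd3 rose (1.23).

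Markers of the cell cycle and of other cells were called in the same comparison. Of 36 cell cycle genes, 22 rose and 0 fell (median 0.94), including Cdk1 (1.22), and their summed level was 6153 to 8909 CPM in WT bortezomib and 4240 to 4937 CPM in WT DMSO libraries. Cd48, the surface marker that the sort was set to exclude, stood at 30.2 to 54.3 CPM after bortezomib and 9.99 to 12.4 CPM after DMSO. Of 7 HSC transcription factor and surface genes 6 fell, and their sum was 1615 to 1819 CPM after bortezomib and 2613 to 2906 CPM after DMSO. The sort genes Kit, Ly6a and Slamf1 summed to 736 to 899 CPM after bortezomib and 1152 to 1317 CPM after DMSO, with Kit and Slamf1 lower. Of 10 monocyte and macrophage markers 1 rose (Cd68), with sums of 118 to 189 CPM after bortezomib and 66.4 to 98.2 CPM after DMSO. Of 10 erythroid markers (9 tested) 2 rose (Hbb-bt and Epor) and 1 fell (Hba-a1), with sums of 195 to 226 CPM after bortezomib and 73.2 to 98.6 CPM after DMSO. Of 10 T and NK cell markers (3 tested) only Nkg7 was called (higher), with sums of 146 to 213 CPM after bortezomib and 82.5 to 90.2 CPM after DMSO, while Cd3e, Cd3g, Cd8a, Gzma, Klrd1 and Ncr1 had 0 counts in all 21 libraries. Of 7 tested progenitor markers 2 rose (Cd48 and Ms4a3), 1 endothelial marker fell (Kdr), and no tested neutrophil, megakaryocyte or B cell marker was called. The part of these cells and of cell division in the result was not tested.

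**Figure D2:**
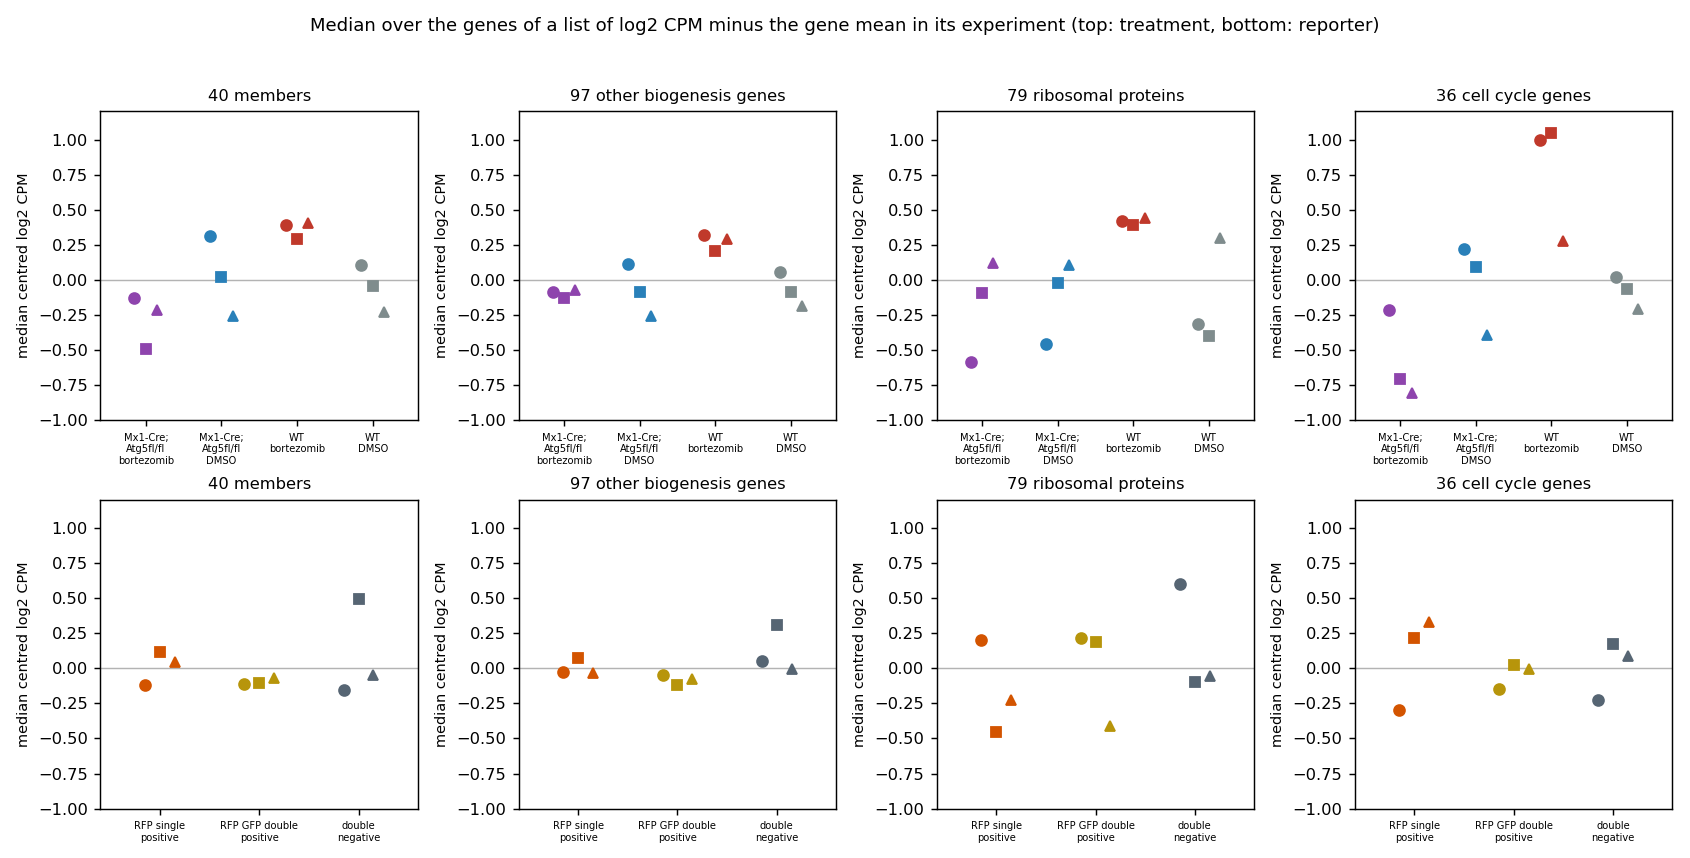
Median over the genes of each list of log2 CPM minus the gene's mean in its experiment (y axis), for every library by group (x axis), with the treatment experiment above and the reporter experiment below. The 3 Mx1-Cre;Atg5fl/fl bortezomib libraries have member medians of -0.49 to -0.13 and the 3 WT bortezomib libraries of 0.29 to 0.40, and in the lower row double negative 2 stands highest for the members, at 0.50.

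In Mx1-Cre;Atg5fl/fl HSCs, bortezomib was compared with DMSO for the response in this genotype, and the interaction below compares the 2 genotypes. No member rose and 2 fell, Polr1a and Gar1, while 3.63% of all genes tested were called (2.02% higher and 1.61% lower). The median log2 fold change of the members was -0.28 and 36 of 40 had a negative value, beside a median of 0.00 over all genes tested. It was -0.14 without Mx1-Cre;Atg5fl/fl DMSO 1, -0.44 without Mx1-Cre;Atg5fl/fl DMSO 3, and between these without any other single library. At an unadjusted p under 0.05, edgeR gave 0 members as higher and 10 as lower, beside 16.7% of all genes tested in either direction. By adjusted p, DESeq2 called 0 members higher and 3 lower, and limma voom 0 higher and 5 lower. Over all 16149 genes tested, DESeq2 called 679 higher and 559 lower, and limma voom 789 higher and 788 lower. In 4 members all bortezomib libraries lay below all DMSO libraries (Polr1a, Gar1, Nop58 and Utp20), as in 9.73% of all genes tested.

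Polr1a (ENSMUSG00000049553.11, chromosome 6, 71909053 to 71984935, GRCm38), the largest subunit of RNA polymerase I, stood at 37.1, 33.1 and 26.5 CPM in Mx1-Cre;Atg5fl/fl bortezomib libraries, against 60.8, 49.6 and 55.7 CPM in Mx1-Cre;Atg5fl/fl DMSO libraries. It was lower in each bortezomib library (log2 fold change -0.78 with SE 0.18, adjusted p = 0.0232 in edgeR). Gar1 (ENSMUSG00000028010.16, chromosome 3, 129824912 to 129831396, GRCm38) stood at 42.1, 34.7 and 46.1 CPM after bortezomib and 76.4, 60.4 and 60.6 CPM after DMSO, again without overlap (log2 fold change -0.68 with SE 0.18, adjusted p = 0.0445 in edgeR). Neither call was steady: the adjusted p reached 0.108 without Mx1-Cre;Atg5fl/fl DMSO 1 for Polr1a and 0.203 without Mx1-Cre;Atg5fl/fl DMSO 1 for Gar1, 0 members were called in a fit of only the groups compared, and leaving out a library left 0 to 3 calls, with 0 without any 1 of the 3 Mx1-Cre;Atg5fl/fl DMSO libraries or without Mx1-Cre;Atg5fl/fl bortezomib 2, and 1 without Mx1-Cre;Atg5fl/fl bortezomib 1. Over all genes tested, 260 of 16149 were called lower with all libraries. The fit of only the groups compared gave 91 of 14765, and leaving out a library 70 to 568.

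**Figure D3:**
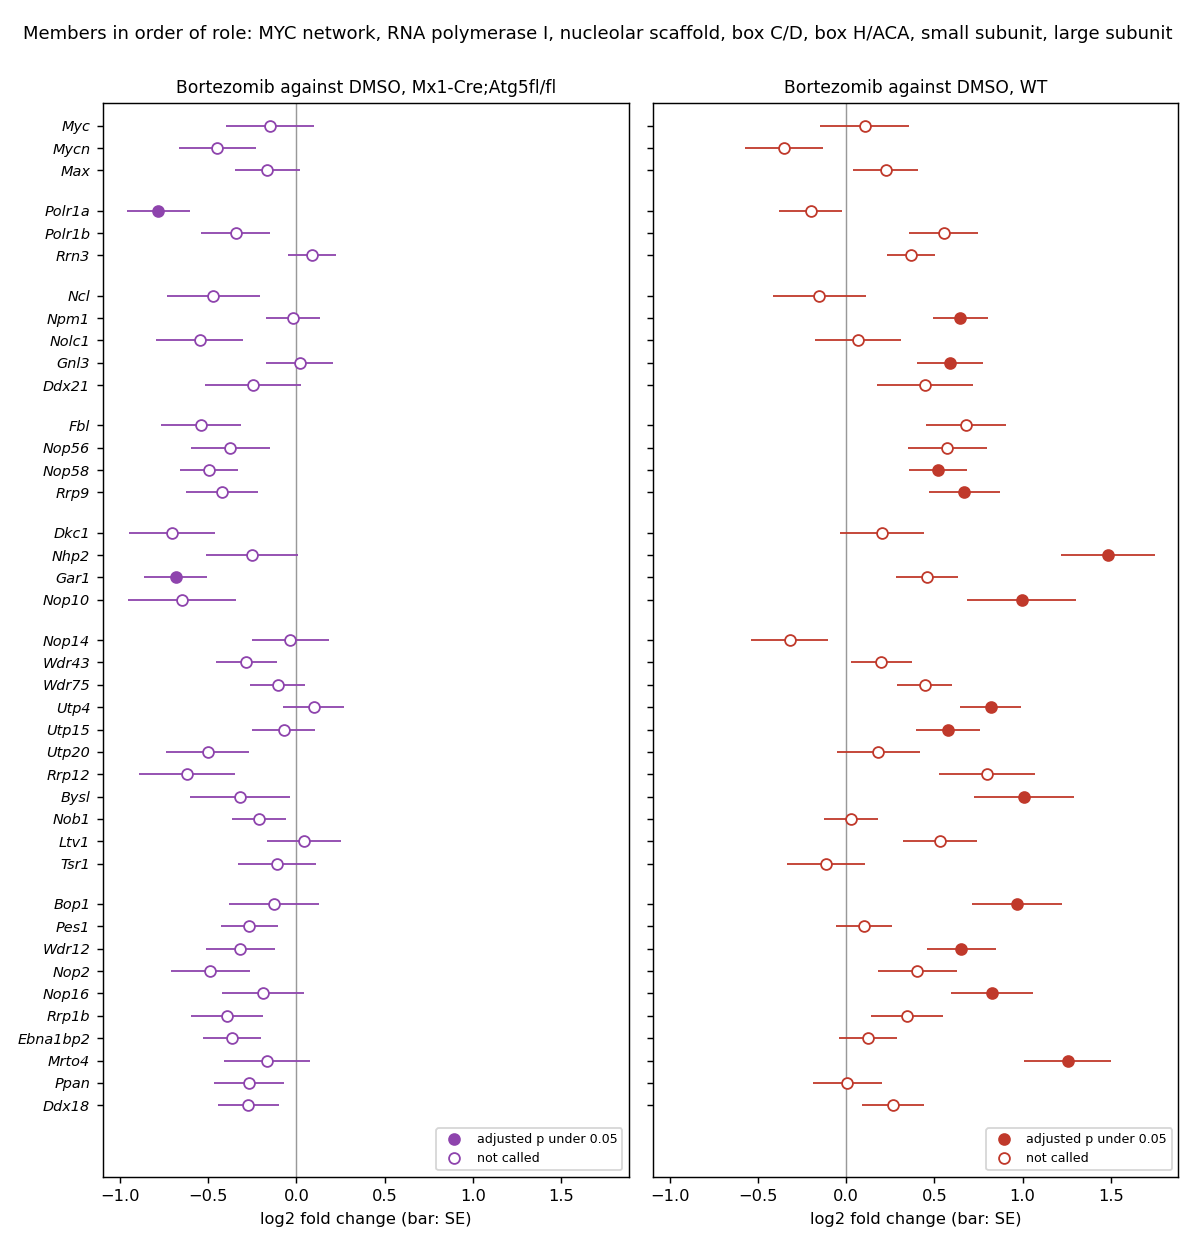
Log2 fold change of bortezomib against DMSO (x axis, bars are SE, n = 3 libraries a group) for each of the 40 members, grouped by role, in Mx1-Cre;Atg5fl/fl (left) and WT HSCs (right), with calls at adjusted p under 0.05 filled. Most points lie below 0 in Mx1-Cre;Atg5fl/fl HSCs, where Polr1a and Gar1 are filled, and above 0 in WT, where 13 are filled.

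Nhp2, Mrto4, Nop10 and Npm1, which rose in WT after bortezomib, were not called in this genotype. Nhp2 stood at 86.9, 77.1 and 167 CPM after bortezomib and 152, 149 and 93.0 CPM after DMSO, and Mrto4 at 33.9, 37.6 and 62.2 CPM after bortezomib and 58.2, 56.9 and 35.1 CPM after DMSO. In both genes the groups overlapped, and Mx1-Cre;Atg5fl/fl bortezomib 3 was the highest library of the 6. Nop10 stood at 213, 193 and 519.6 CPM after bortezomib and 417, 608 and 427 CPM after DMSO, with bortezomib 3 inside the DMSO range and the other bortezomib libraries below it (log2 fold change -0.65 with SE 0.31, adjusted p = 0.305 in edgeR). Npm1 was not called, at 519, 579 and 645 CPM after bortezomib and 600.5, 623 and 544 CPM after DMSO (log2 fold change -0.02 with SE 0.15, adjusted p = 0.976 in edgeR). Fbl, which was not called in WT either, stood at 62.8, 48.7 and 95.2 CPM after bortezomib and 129.5, 91.0 and 80.4 CPM after DMSO, with overlap at bortezomib 3 (log2 fold change -0.54 with SE 0.23, adjusted p = 0.227 in edgeR). Ncl had 682, 592 and 385 CPM after bortezomib and 964, 687 and 647 CPM after DMSO, and was not called (log2 fold change -0.47 with SE 0.26, adjusted p = 0.404 in edgeR).

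For the transcription factors, Myc stood at 326, 171 and 300.1 CPM after bortezomib and 390.3, 287 and 206 CPM after DMSO in these HSCs, a wide and overlapping spread (log2 fold change -0.15 with SE 0.25, adjusted p = 0.849 in edgeR). Mycn stood at 421, 235 and 395 CPM after bortezomib and 550.1, 499 and 383 CPM after DMSO. Max stood at 51.5, 56.2 and 45.3 CPM after bortezomib and 63.4, 44.4 and 63.5 CPM after DMSO. Each of these overlapped and was not called (adjusted p = 0.325 and 0.741 in edgeR). In the wider lists, 1 of 97 further biogenesis factors rose (Ngdn, 0.73) and 0 fell, and 0 of 79 ribosomal protein genes and 0 of 12 genes linked to MYC and MAX were called. Of the 32 MYC targets outside the ribosome 5 fell (median -0.55), led by Cad, an enzyme of pyrimidine synthesis (-1.56), Apex1, a DNA repair enzyme (-0.89), Set (-0.80) and Gart, an enzyme of purine synthesis (-0.81). Of the 36 cell cycle genes 6 fell (median -0.48), among them Mcm5 (-1.25), Mcm3 (-1.02), Mcm7 (-1.02) and Tk1 (-1.22), and the sum of this list was 2471 to 3891 CPM after bortezomib and 3417 to 5853 CPM after DMSO. Cd48 stood at 3.57 to 14.4 CPM after bortezomib and 13.8 to 20.1 CPM after DMSO. Among markers of other cells, the monocyte genes Cd14 and Cd68 and the megakaryocyte gene Itgb3 rose, while the erythroid gene Hbb-bt, the megakaryocyte genes Vwf and Ppbp and the HSC gene Hlf fell. The part of these markers in the 2 calls was not tested.

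Genotype was compared under DMSO to ask how the genotypes differ without drug. The Xist share was at most 0.987% in Mx1-Cre;Atg5fl/fl DMSO and 60.0 to 99.2% in WT DMSO libraries. Genotype and the sex that this share marks therefore cannot be told apart here. No difference in the members was called by edgeR: 0 of 40 rose and 0 fell, with 0% of all genes tested called. The median log2 fold change of the members was 0.05, beside 0.00 over all genes. Its sign rested on single libraries: it was -0.08 without Mx1-Cre;Atg5fl/fl DMSO 1 and -0.02 without WT DMSO 3, but 0.16 without Mx1-Cre;Atg5fl/fl DMSO 3 and 0.13 without WT DMSO 1. At an unadjusted p under 0.05 there was 1 member, Utp20, against 9% of all genes tested, and DESeq2 and limma voom each called that member as well. Over all 16149 genes tested, DESeq2 called 97 higher and 55 lower, and limma voom 68 higher and 46 lower. In 2 members (Rrn3 and Utp20) all Mx1-Cre;Atg5fl/fl libraries lay above all WT libraries and in 0 below, as in 9.39% and 8.63% of all genes tested. Utp20, a large scaffold of small subunit assembly, stood at 27.9, 20.7 and 22.5 CPM in Mx1-Cre;Atg5fl/fl DMSO libraries, against 15, 10.9 and 12.2 CPM in WT DMSO libraries. The groups did not overlap (log2 fold change 0.90 with SE 0.24, adjusted p = 0.229 in edgeR), and the DESeq2 adjusted p was 0.0281. Over all alternatives run, the adjusted p of Utp20 lay between 0.0281 and 0.697. Rrp12, an export factor of both subunits, had 70.3, 54.1 and 39.5 CPM in Mx1-Cre;Atg5fl/fl and 48.7, 41.1 and 22.1 CPM in WT DMSO libraries, and Mrto4 had 58.2, 56.9 and 35.1 CPM in Mx1-Cre;Atg5fl/fl and 66.3, 56.7 and 87.2 CPM in WT DMSO libraries. The groups of these 2 genes overlapped (edgeR adjusted p = 0.569 and 0.575). Myc, Mycn, Max, Ncl, Npm1 and Fbl had log2 fold changes of -0.26, 0.36, 0.11, 0.34, 0.05 and -0.08, with overlapping libraries, and 0 genes of the other pathway lists were called. With the Xist share as a covariate the median of the members was 0.25.

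Genotype was then compared under bortezomib. Of the 40 members, 24 fell and 0 rose in Mx1-Cre;Atg5fl/fl against WT bortezomib libraries, while edgeR called 32.4% of all genes tested, 17.2% as higher and 15.3% as lower. All 8 snoRNP genes fell, 4 box C/D and 4 box H/ACA, together with 6 of 11 small subunit and 7 of 10 large subunit factors, 2 scaffold genes (Npm1 and Gnl3) and 1 of 3 RNA polymerase I genes (Polr1b). None of Myc, Mycn and Max was called. The median log2 fold change of the members was -0.59, beside 0.08 over all genes tested. In 28 members all Mx1-Cre;Atg5fl/fl libraries lay below all WT libraries, and in 0 above, compared with 21.8% and 22.3% of all genes tested. The WT bortezomib and Mx1-Cre;Atg5fl/fl bortezomib libraries used here are those of the comparisons with DMSO, so these comparisons share samples.

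The box H/ACA genes had the largest differences, at a median of -1.49. Nhp2 stood at 86.9, 77.1 and 167 CPM in Mx1-Cre;Atg5fl/fl bortezomib libraries, against 485, 418 and 400.4 CPM in WT bortezomib libraries, and even the highest Mx1-Cre;Atg5fl/fl library, number 3, was far below every WT library (log2 fold change -1.98 with SE 0.27, adjusted p = 0.000191 in edgeR). Nop10 had 213, 193 and 519.6 CPM in Mx1-Cre;Atg5fl/fl and 1371, 1168 and 1045 CPM in WT libraries, and library 3 was again the highest of its group without reaching WT (log2 fold change -1.95 with SE 0.32, adjusted p = 0.000441 in edgeR). Gar1 had 42.1, 34.7 and 46.1 CPM in Mx1-Cre;Atg5fl/fl and 81.6, 85.4 and 84.5 CPM in WT libraries, tight within each genotype (log2 fold change -1.03 with SE 0.18, adjusted p = 0.000645 in edgeR). Dkc1, the enzyme of the particle, fell to 111 ± 21.7 CPM, against 201 ± 6.35 CPM in WT (log2 fold change -0.85 with SE 0.24, adjusted p = 0.0138 in edgeR), a call that ended without Mx1-Cre;Atg5fl/fl bortezomib 2 (adjusted p = 0.0696, the highest over the 16 alternatives).

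The box C/D genes had a median of -1.13. Fbl stood at 62.8, 48.7 and 95.2 CPM in Mx1-Cre;Atg5fl/fl bortezomib libraries, against 169.5, 158 and 183 CPM in WT bortezomib libraries, with no overlap (log2 fold change -1.30 with SE 0.23, adjusted p = 0.000685 in edgeR). Nop58 stood at 122, 107 and 126 CPM in Mx1-Cre;Atg5fl/fl and 248, 245 and 268 CPM in WT libraries, tight within each genotype and without overlap (log2 fold change -1.10 with SE 0.17, adjusted p = 0.000296 in edgeR). Rrp9 had 32.4, 33.6 and 30.1 CPM in Mx1-Cre;Atg5fl/fl and 66.2, 61.3 and 88.2 CPM in WT libraries, likewise without overlap (log2 fold change -1.17 with SE 0.21, adjusted p = 0.000699 in edgeR). Nop56 averaged 154 ± 31.6 CPM, against 309 ± 27.4 CPM in WT (log2 fold change -1.0).

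Large subunit factors followed, with a median of -0.73 and all 10 values negative. Mrto4 had the smallest adjusted p of all members: it stood at 33.9, 37.6 and 62.2 CPM in Mx1-Cre;Atg5fl/fl bortezomib libraries, against 172, 159 and 172 CPM in WT bortezomib libraries, so that the highest Mx1-Cre;Atg5fl/fl library was far below the lowest WT library (log2 fold change -1.91 with SE 0.25, adjusted p = 0.000166 in edgeR). A row for a pseudogene of Mrto4 held 8 counts over all libraries, against 36745 for the gene. Wdr12 had 117, 94.1 and 144 CPM in Mx1-Cre;Atg5fl/fl and 231, 199.8 and 261 CPM in WT libraries (log2 fold change -0.96 with SE 0.20, adjusted p = 0.00176 in edgeR). Its partner Bop1 fell to 89.0 ± 38.7 CPM, against 179 ± 2.64 CPM in WT, and Pes1 was not called, at 98.7 ± 12.4 CPM in Mx1-Cre;Atg5fl/fl and 123 ± 5.47 CPM in WT libraries (adjusted p = 0.00726 and 0.150 in edgeR). Nop16, Ebna1bp2, Ddx18 (a helicase) and Nop2 (a methyltransferase of ribosomal RNA) fell, with log2 fold changes of -1.13, -0.76, -0.55 and -0.70.

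**Figure D4:**
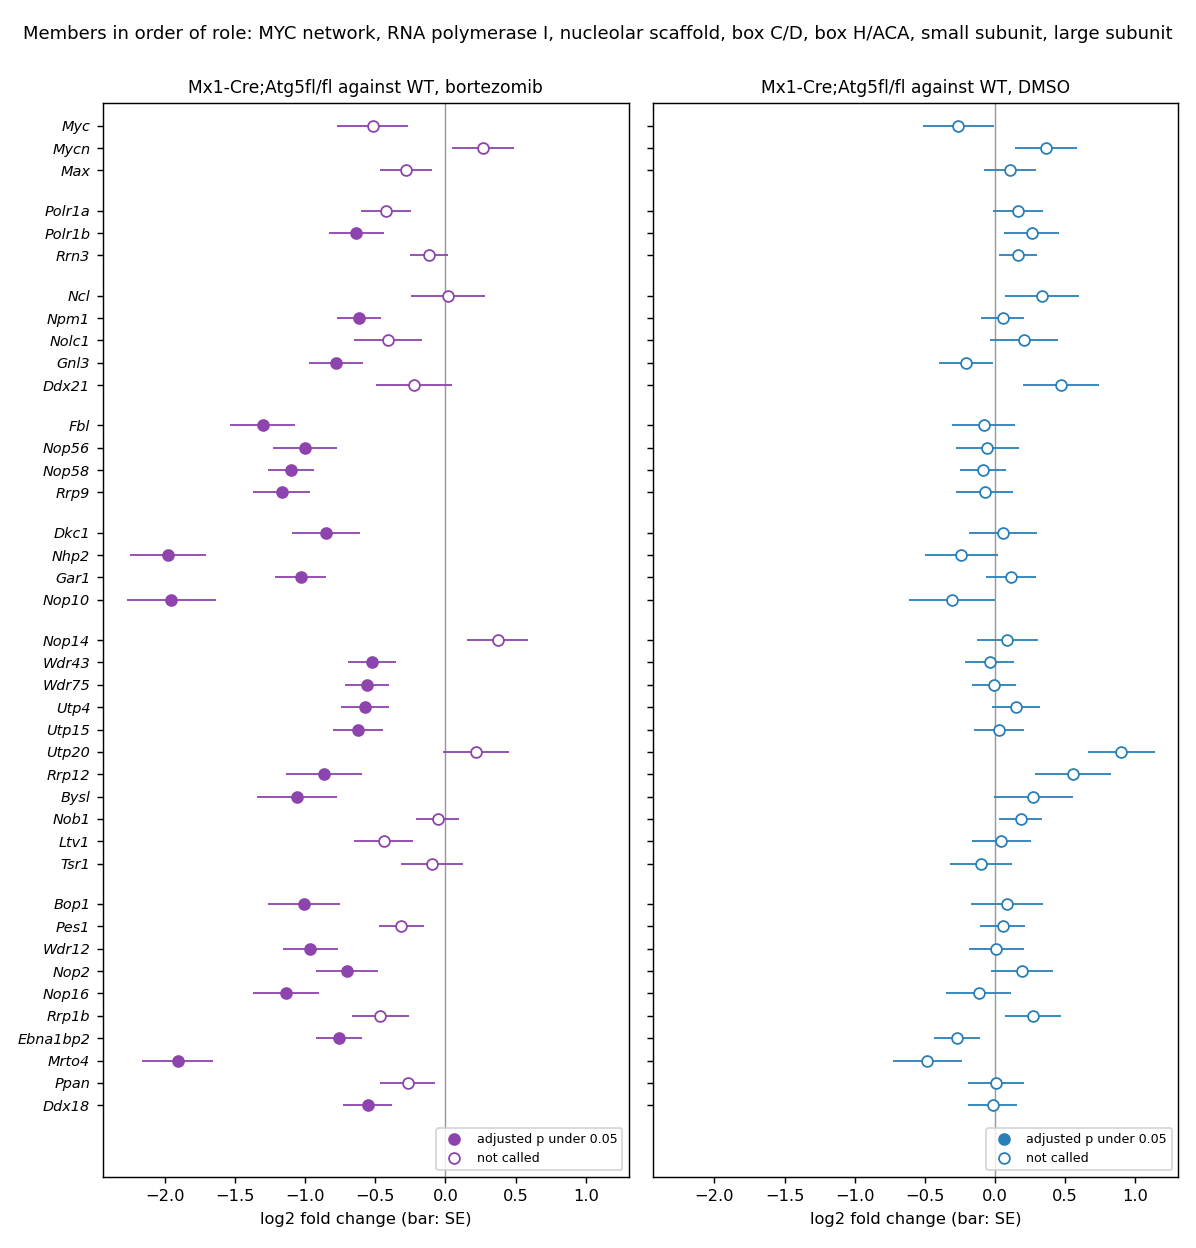
Log2 fold change of Mx1-Cre;Atg5fl/fl against WT (x axis, bars are SE, n = 3 libraries a group) for each of the 40 members, grouped by role, under bortezomib (left) and under DMSO (right), with calls at adjusted p under 0.05 filled. On the left 24 points are filled, all below 0, and on the right none is filled.

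Small subunit factors were divided. Bysl, Rrp12, Utp15, Utp4, Wdr75 and Wdr43 fell, at log2 fold changes of -1.06, -0.87, -0.62, -0.57, -0.56 and -0.52. Nob1, the nuclease that makes the last cut of the small subunit RNA, was not called, at 91.6 ± 4.24 CPM in Mx1-Cre;Atg5fl/fl and 95.2 ± 4.25 CPM in WT libraries, nor was Tsr1 (55.8 ± 9.18 CPM in Mx1-Cre;Atg5fl/fl and 59.7 ± 8.19 CPM in WT libraries). Utp20 and Nop14 had positive values that were not called (0.22 and 0.37). Nop14 was called higher by limma voom and without Mx1-Cre;Atg5fl/fl bortezomib 3, which left 1 member called higher.

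Of the scaffold genes, Npm1 stood at 519, 579 and 645 CPM in Mx1-Cre;Atg5fl/fl bortezomib libraries, against 965, 863 and 841 CPM in WT bortezomib libraries. The genotypes did not overlap (log2 fold change -0.62 with SE 0.15, adjusted p = 0.00679 in edgeR), but under the length and GC offsets the log2 fold change shrank to -0.30 and the adjusted p was 0.0700, the highest over the 16 alternatives. Ncl showed no such gap, at 682, 592 and 385 CPM in Mx1-Cre;Atg5fl/fl and 543, 630.2 and 467 CPM in WT libraries (log2 fold change 0.02 with SE 0.26, adjusted p = 0.971 in edgeR). Myc stood at 326, 171 and 300.1 CPM in Mx1-Cre;Atg5fl/fl and 394, 369 and 378 CPM in WT libraries: every Mx1-Cre;Atg5fl/fl library was lower, the spread was wide, with Mx1-Cre;Atg5fl/fl library 2 lowest, and the difference was not called (log2 fold change -0.52 with SE 0.25, adjusted p = 0.131 in edgeR). It was called without a filter on low counts and with the replicate number as a block together with length and GC offsets. Mycn had 421, 235 and 395 CPM in Mx1-Cre;Atg5fl/fl and 271, 264 and 338 CPM in WT libraries. Max had 51.5, 56.2 and 45.3 CPM in Mx1-Cre;Atg5fl/fl and 67.5, 53.7 and 64.5 CPM in WT libraries, both overlapping (edgeR adjusted p = 0.388 and 0.269).

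Of the 24 calls, 13 held under each of the 16 alternatives, all 4 box C/D genes and Nhp2, Nop10, Gar1, Mrto4, Nop16, Wdr12, Bop1, Ebna1bp2 and Gnl3. The count was 15 without Mx1-Cre;Atg5fl/fl bortezomib 2, 16 without WT bortezomib 1, and 21 to 30 under the other alternatives. Over all genes tested, 2464 were called lower with all libraries, 1794 and 1789 in these 2 fits, and 1860 to 3396 under the others.

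The wider lists were tested in the same comparison. Of 97 further biogenesis factors 35 fell and 4 rose (median -0.37), with Emg1 (-1.20), Polr1c (-1.14), Imp4 (-0.84) and Ruvbl2 (-1.10) lowest in p. Of 79 ribosomal protein genes 36 fell and 0 rose (median -0.57), among them Rpl5 (-1.17), Rpl38 (-1.33) and Rps16 (-1.22). Of 32 MYC targets outside the ribosome 29 fell (median -1.36), led by the thymidylate synthase Tyms (-2.44), Phb2 (-1.39), the cyclin-dependent kinase Cdk4 (-1.60) and C1qbp (-1.55). Tyms belongs to the list of cell cycle genes as well, so it is counted in both lists. Of the 12 genes linked to MYC and MAX, not all of which pair with either, 9 rose and 2 fell (median 0.92): the repressors Mxd4 (1.41) and Mxd1 (1.61) rose, as did Mlxip, a nutrient-sensing factor that pairs with MLX (1.30), and Zbtb17, through which MYC represses genes (1.26). The 2 that fell were Mxd3, a repressor of the same family (-1.68), and Mycbp (-0.92). By the E-box search above, 3 of the 20 members that fell and had a window held the motif (15%), against 6 of the 15 that were not called (40%). The share was 11.6% of genes tested in the treatment experiment. Npm1, Fbl, Bop1 and Rrp12 fell and had no window. These counts are small, and the difference between the shares was not tested.

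Markers were called here as well. Of the 36 cell cycle genes 26 fell and 0 rose (median -1.33), with Cdk1 at -2.02, and the sum was 2471 to 3891 CPM in Mx1-Cre;Atg5fl/fl and 6153 to 8909 CPM in WT bortezomib libraries. Cd48 stood at 3.57 to 14.4 CPM in Mx1-Cre;Atg5fl/fl and 30.2 to 54.3 CPM in WT libraries. Kit, Ly6a and Slamf1 all rose, and summed to 1238 to 1442 CPM in Mx1-Cre;Atg5fl/fl and 736 to 899 CPM in WT libraries, and 1 of the 7 HSC genes rose (Mecom), with sums of 1947 to 2220 CPM in Mx1-Cre;Atg5fl/fl and 1615 to 1819 CPM in WT libraries. Of 10 monocyte and macrophage markers 5 fell (C1qa, C1qb, C1qc, Adgre1 and Mrc1), with sums of 81.0 to 98.7 CPM in Mx1-Cre;Atg5fl/fl and 118 to 189 CPM in WT libraries. Erythroid markers summed to 59.4 to 82.3 CPM in Mx1-Cre;Atg5fl/fl and 195 to 226 CPM in WT libraries, with Hbb-bt lower and Hba-a1 higher, and T and NK cell markers to 44.6 to 123 CPM in Mx1-Cre;Atg5fl/fl and 146 to 213 CPM in WT libraries, with Nkg7 lower. In the remaining lists, 3 megakaryocyte markers rose and 3 fell, S100a9 of the neutrophil markers fell, Flt3 of the progenitor markers rose, and Kdr and Pdgfrb of the endothelial and stromal markers rose, with no B cell marker called. The part of these markers in the result was not tested.

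The interaction tests directly whether bortezomib acted differently in the 2 genotypes. For 10 of the 40 members the effect in Mx1-Cre;Atg5fl/fl HSCs was lower than that in WT HSCs, and for 0 it was higher, while 9.05% of all genes tested were called, 4.35% higher and 4.71% lower. They were 3 box C/D genes (Fbl, Nop58 and Rrp9), 3 box H/ACA genes (Nhp2, Nop10 and Gar1), Rrp12, Bysl, Wdr12 and Mrto4. The median difference over the members was -0.68, beside 0.06 over all genes tested, and 38 of 40 values were negative. For Nhp2 the log2 fold change was -0.25 in Mx1-Cre;Atg5fl/fl and 1.48 in WT HSCs, a difference of -1.73 (SE 0.37, edgeR adjusted p = 0.0136). Gar1 had -0.68 in Mx1-Cre;Atg5fl/fl and 0.46 in WT HSCs, again of opposite sign (difference -1.14, SE 0.25, edgeR adjusted p = 0.0152). In all 10 called members the estimated effect was positive in WT and negative in Mx1-Cre;Atg5fl/fl HSCs, as it was in 31 of all 40 members. Of the 10, 7 were called in WT HSCs, and only Gar1 was called in Mx1-Cre;Atg5fl/fl HSCs. The difference was -1.43 for Mrto4, -1.65 for Nop10, -1.42 for Rrp12, -1.22 for Fbl, -1.33 for Bysl, -1.09 for Rrp9, -1.02 for Nop58 and -0.97 for Wdr12. It was -0.26 for Myc, -0.09 for Mycn, -0.39 for Max, -0.32 for Ncl and -0.67 for Npm1, and none of these 5 was called. In the wider lists 9 of 97 biogenesis factors, 5 of 79 ribosomal protein genes, 24 of 32 MYC targets outside the ribosome and 19 of 36 cell cycle genes were lower, and 2 of 12 genes linked to MYC and MAX, Mxd4 (1.38) and Mlxip (1.13), were higher. Among markers of other cells and of the sort, Cd48 (-2.78), Nkg7 (-1.80), the erythroid gene Hbb-bt (-4.14) and the megakaryocyte gene Vwf (-1.05) were lower and the megakaryocyte gene Itgb3 (2.09) was higher, and the part of these genes and of the cell cycle in the result was not tested. With the Xist share as a covariate 3 members were called (Gar1, Rrp12 and Nop2), beside 125 lower and 151 higher of all 16149 genes tested. Only Gar1 was called under each of the 21 alternatives. The counts of members called lower were 6, 2 and 9 without WT DMSO 1, 2 and 3, and 2, 5 and 7 without WT bortezomib 1, 2 and 3. They were 2, 3 and 16 without Mx1-Cre;Atg5fl/fl DMSO 1, 2 and 3, and 4, 3 and 16 without Mx1-Cre;Atg5fl/fl bortezomib 1, 2 and 3. With all libraries, 760 of 16149 genes tested were called lower. Of 16849 to 16993 genes tested in the same order, the counts were 354, 193 and 880, then 179, 336 and 707. For the Mx1-Cre;Atg5fl/fl libraries they were 298, 166 and 860, then 402, 318 and 1590 genes.

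In the reporter experiment the 3 sorted populations were compared, since the acid of lysosomes dims EGFP more than RFP and the colours thereby report on autophagic flux. By edgeR, 0 of 40 members were called in any of the 3 comparisons, as were 0% of all 15375 genes tested for RFP single positive against RFP GFP double positive, 0% for RFP single positive against double negative, and 0.0065% (1 gene) for RFP GFP double positive against double negative. At an unadjusted p under 0.05 there were 0, 1 and 6 members in that order, against 1.36%, 7.54% and 8.55% of all genes tested, and DESeq2 and limma voom also called 0 members. Over all genes tested, DESeq2 called 1, 15 and 32 higher and 1, 4 and 15 lower, and limma voom 0. The median log2 fold changes of the members were 0.11, -0.07 and -0.29, beside 0.00, 0.02 and 0.02 over all genes tested. The first was 0.17 without RFP single positive 1, and the last was -0.12 without double negative 2 and -0.41 without double negative 1. These comparisons share libraries.

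**Figure D5:**
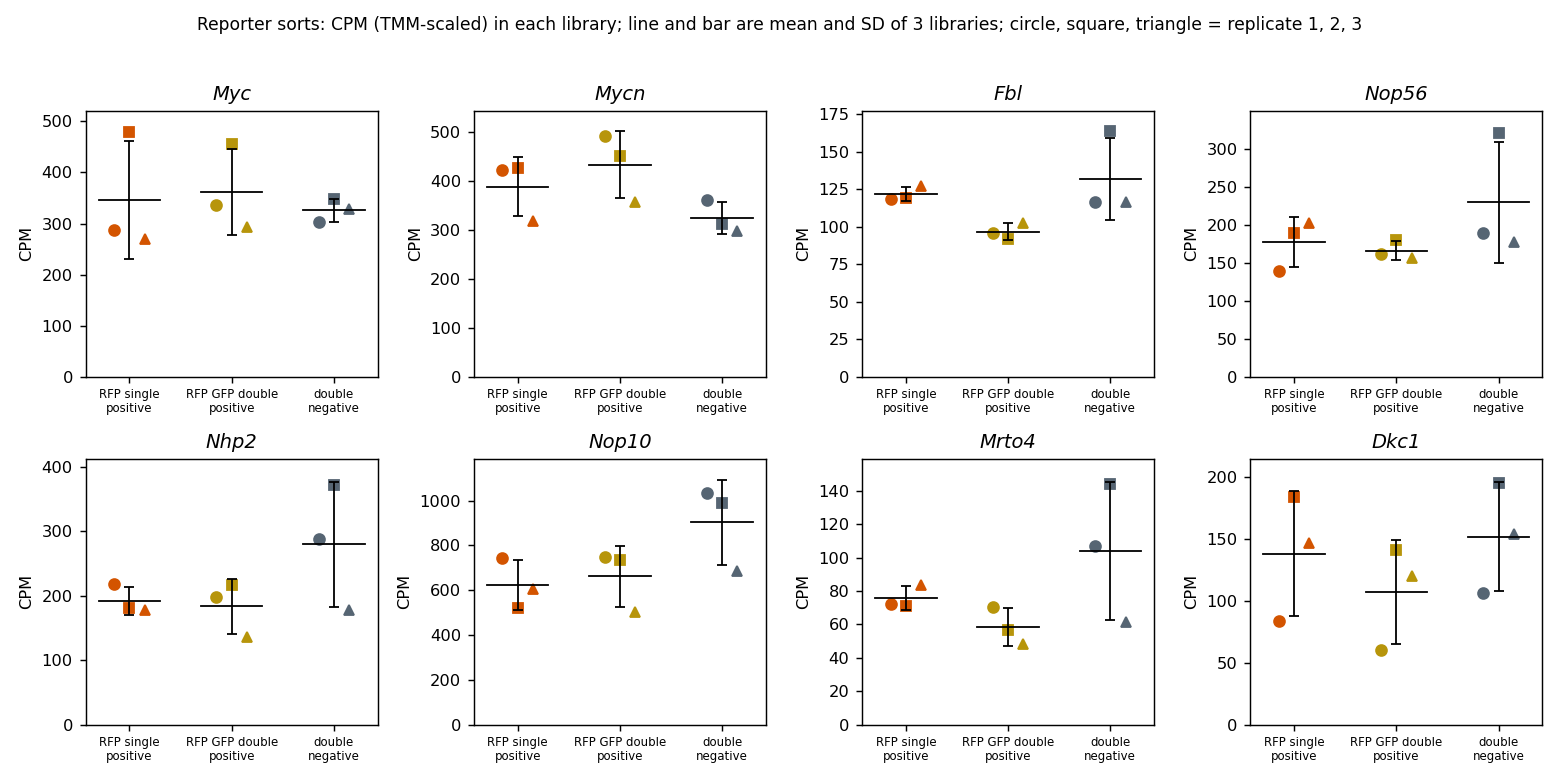
CPM (y axis, from 0) of 8 members in each library of the reporter experiment, by sorted population (x axis), with the mean as a line and the SD as a bar (n = 3). Libraries overlap between populations in most panels, and double negative 2 is the highest library for Fbl, Nop56, Nhp2, Mrto4 and Dkc1.

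Fbl stood at 119, 119 and 127 CPM in RFP single positive, 95.7, 91.9 and 103 CPM in RFP GFP double positive and 116, 163 and 116 CPM in double negative libraries. Among the members, 3 (Fbl, Nop58 and Ebna1bp2) were lower without overlap in double positive than in double negative libraries, beside 4.94% of all genes tested, and 0 were higher (6.28%). For Fbl the double positive libraries were the lowest, without overlap with either other population (log2 fold change 0.33 for single against double positive and -0.45 for double positive against double negative, edgeR adjusted p = 1.00 and 0.558). Nop14 had 26.1, 45.8 and 44.5 CPM in RFP single positive and 19.4, 17.6 and 34.6 CPM in RFP GFP double positive libraries, with overlap (log2 fold change 0.70), and Bysl had 37.2, 42.4 and 34.4 CPM in RFP single positive and 24.2, 30.3 and 28.4 CPM in RFP GFP double positive libraries, without overlap (log2 fold change 0.46). Non-overlap between single and double positive cells was found in 6 members, all higher in single positive, compared with 3.84% of all genes tested, and in 0 lower (3.51%). Nop10 stood at 743, 521 and 603 CPM in single positive, 747, 734 and 504 CPM in double positive and 1032, 988 and 687 CPM in double negative libraries. Its double negative libraries 1 and 2 were the highest of the 9 (single positive against double negative, log2 fold change -0.54 with SE 0.22, adjusted p = 0.651 in edgeR). Nhp2 stood at 218, 181 and 179 CPM in single positive, 197, 217 and 135 CPM in double positive and 289, 373 and 179 CPM in double negative libraries. Gnl3 stood at 127, 122 and 128 CPM in single positive, 138, 121 and 99.6 CPM in double positive and 156, 217 and 130.3 CPM in double negative libraries, and Mrto4 at 72.1, 70.9 and 83.9 CPM in single positive, 70.7, 56.5 and 48.4 CPM in double positive and 107, 144 and 61.3 CPM in double negative libraries. For each of them double negative 2 was the highest library, and the double negative mean was the highest of the 3 (Mrto4 in double positive against double negative, log2 fold change -0.83 with SE 0.28, adjusted p = 0.555 in edgeR).

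Myc stood at 288, 479 and 270.5 CPM in single positive, 337, 457 and 294 CPM in double positive and 303, 348 and 328 CPM in double negative libraries, with the replicates numbered 2 highest in each population and overlap between populations. Mycn stood at 421, 425 and 317 CPM in single positive, 490.2, 450.1 and 357 CPM in double positive and 359.6, 312 and 297 CPM in double negative libraries. Max stood at 85.6, 36.9 and 43.4 CPM in single positive, 61.4, 42.5 and 63.2 CPM in double positive and 58.6, 63.9 and 40.6 CPM in double negative libraries. Both overlapped between populations. Ncl stood at 210.4, 435 and 454 CPM in single positive, 199, 267 and 338 CPM in double positive and 207, 437 and 377 CPM in double negative libraries. Npm1 stood at 672, 669 and 686 CPM in single positive, 742, 784 and 622 CPM in double positive and 859, 817 and 705 CPM in double negative libraries. Of these, only Npm1 in single positive against double negative cells had libraries without overlap, lower in single positive, as did Gnl3 among the other members, beside 5.52% of all genes tested, while 0 members were higher without overlap (7.64%). No gene of the other biogenesis, ribosomal protein, MYC target, MYC- and MAX-linked or cell cycle lists was called. The member median of double negative 2 was 0.50 and that of the other 8 libraries -0.16 to 0.12, and Cd48 was 1.85 to 15.9 CPM in single positive, 8.17 to 12.5 CPM in double positive and 17.7 to 54.1 CPM in double negative libraries, whose part in these values was not tested. Without double negative 2 the median of single positive against double negative was 0.07, and without RFP single positive 1 it was 0.02, and without any other single library it lay between -0.23 and -0.09.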

How the data were processed

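RNA-seq was measured in 21 mouse HSC libraries (12 from treated mice and 9 from reporter mice). Raw counts per gene, not normalized, were deposited by the authors in 1 table, with 0 columns that belong to no sample. Per the submitters' processing notes, Bowtie 1.0.0, STAR 2.6.1 and HTSeq 0.7.1 were used, and the builds GRCm38.p4 and GRCh38 are listed without a role. Which annotation release and which strand setting were used is not given in the sources used here.

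The 2 experiments were fitted apart with edgeR 4.0.16 (R 4.3.3): genes were filtered with filterByExpr (minimum count 10), scaled with TMM, and tested with the quasi-likelihood test on group means, with p-values adjusted by Benjamini-Hochberg over all 16149 and 15375 genes tested. CPM values use the TMM library sizes. The scripts were tested on simulated data. Alternatives were relative log expression size factors, DESeq2 1.42.0, limma 3.58.1 voom with quality weights, no filter, fits of the compared groups alone, a block for replicate number, length and GC offsets, the Xist share, and leaving out libraries. Promoter windows came from RefSeq tables, and gene positions from the GRCm38 annotation. In each comparison every member was counted. Myc, Mycn, Max, Ncl, Npm1 and Fbl were named throughout, with up to 8 called members each way by smallest p or, with none called, the 3 of smallest p, and up to 4 called genes of each other list. Remaining members were named to complete a role, after their values were seen. The members and lists were chosen with earlier results of these data known. With 3 libraries a group the precision of each fold change is limited by the spread between libraries.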

Additional observations from a re-analysis of the deposited data

Results flagged for a closer look

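For 10 members the test of the difference between genotypes in the effect of bortezomib passed edgeR's adjusted threshold. Each value is the log2 fold change of bortezomib against DMSO in Mx1-Cre;Atg5fl/fl HSCs minus that in WT HSCs, with 3 libraries in each of the 4 groups. The box H/ACA genes had differences of -1.73 (Nhp2), -1.65 (Nop10) and -1.14 (Gar1). The box C/D genes had -1.22 (Fbl), -1.09 (Rrp9) and -1.02 (Nop58). The assembly factors had -1.43 (Mrto4), -1.42 (Rrp12), -1.33 (Bysl) and -0.97 (Wdr12). The adjusted p lay between 0.0136 (Nhp2) and 0.0496 (Bysl) in edgeR. In every one of the 10 the estimated effect was negative in Mx1-Cre;Atg5fl/fl and positive in WT HSCs. Of the 10, 7 were called in WT HSCs, and only Gar1 was called in Mx1-Cre;Atg5fl/fl HSCs. Over the 21 alternatives, 1 of the 10 interaction calls held under all and 9 were lost under at least 1.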

How the results depend on the processing

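Of 834 values of called members under the alternatives, 664 kept their direction and their call, 170 kept their direction and lost the call (141 of them with a library left out), and 0 reversed. For bortezomib in WT, 13 members were called higher, against 21 higher and 1 lower with limma voom, 20 with the block plus length and GC offsets, and 3 to 7 with a library left out. Over all genes tested, 1287 of 16149 were called higher, against 2990 higher and 3244 lower with limma voom. The block plus offsets gave 1693 of 16091 genes higher, and leaving out a library gave 282 to 1362. For bortezomib in Mx1-Cre;Atg5fl/fl HSCs, 2 were called lower, against 5 with limma voom, 4 with no filter, 1 with the Xist share, 0 in a fit of only the groups compared, 5 without the 3 libraries that stood apart (Mx1-Cre;Atg5fl/fl bortezomib 3, WT bortezomib 3 and WT DMSO 3), and 0 to 3 with a library left out. Over all genes tested, 260 of 16149 were called lower, against 788 with limma voom and 223 with the Xist share. No filter gave 533 of 24983 genes, and the groups compared alone 91 of 14765. The fit without the 3 libraries gave 1017 of 16410 genes, and leaving out a library 70 to 568. Between genotypes under DMSO, DESeq2 and limma voom each called 1 member higher, beside 97 and 68 of 16149 genes tested, where edgeR called 0. Under bortezomib, limma voom called 1 higher, and leaving out a library gave 0 to 1 higher and 15 to 25 lower. Over all 16149 genes tested, edgeR called 2770 higher and 2464 lower, and limma voom 4032 higher. Leaving out a library gave 1793 to 3071 genes higher and 1789 to 2929 lower. For the interaction, 10 were called lower, against 17 with DESeq2, 22 with limma voom, 16 with no filter, 21 with length and GC offsets, 23 with the block plus these offsets, 3 with the Xist share, 16 without the 3 libraries that stood apart, and 2 to 16 with a library left out. Over all genes tested, 760 of 16149 were called lower, against 1252 with DESeq2, 2392 with limma voom and 125 with the Xist share. No filter gave 1125 of 24983 genes, the offsets 1144 and the block plus offsets 1350 of 16091. The fit without the 3 libraries gave 2124 of 16410 genes, and leaving out a library 166 to 1590. The cause of these shifts was not tested. With the replicate number as a block, 16 members were called higher in WT, 2 lower in Mx1-Cre;Atg5fl/fl HSCs, 24 lower between genotypes under bortezomib, 14 lower for the interaction and 0 in the reporter comparisons. Of all 16149 genes tested, the block gave 1578, 380, 2709 and 1043 in the same order, and at most 2 genes in a reporter comparison. Samples with the same number correlated at -0.03 to 0.20 in 18 pairs of the treatment experiment (2 over 0.1). In the reporter experiment they correlated at -0.01 to 0.16 in 9 pairs (4 over 0.1). Samples with different numbers lay at -0.17 to 0.10 and at -0.16 to 0.10. Values were centred on groups of 3, so low correlations cannot show that the numbers do not pair the samples. Reporter libraries numbered 2 had Xist shares of 88.1 to 99.9%, against 0 to 10.2% in the others. Whether the numbers pair the samples is therefore not settled. The member median between genotypes under DMSO was -0.08 to 0.16 with a library left out, so its sign rests on single libraries. Members with few counts, such as Utp20, carry the widest counting error.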
